A study of Mus musculus with 9 samples.

Results

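The genes described here are 8 markers of neural crest cells and of the glia and pigment cells that arise from them: Sox10, Foxd3, Tfap2a and Ets1, which encode transcription factors, Erbb3 and Ngfr, which encode receptors, and Mitf and Pmel, which belong to the pigment cell program. They were taken by symbol from a table of 21356 gene symbols measured by RNA sequencing in dissected mouse midbrain at E13.5, and 7 of the 8 were among the 14029 genes that passed the filter on low values. The table holds 9 libraries, 3 fetuses for each of 3 genotypes, in C57BL/6 mice. The floxed control carried 2 floxed alleles of Gpr161 and no Cre (Gpr161f/f). The Cre control carried 1 floxed allele and the Wnt1-Cre transgene (Gpr161f/+;Wnt1-Cre). The conditional knockout (cKO) carried both floxed alleles and Wnt1-Cre (Gpr161f/f;Wnt1-Cre). All 9 fetuses thus carried at least 1 floxed allele. The cKO differed from the floxed controls in the transgene as well as in the deletion, and from the Cre controls in the second floxed allele. Wnt1-Cre is driven by regulatory sequence of Wnt1, which is active in the dorsal neural tube, including the midbrain, and in the neural crest that leaves it, so other cells of the dissected tissue keep Gpr161. Beyond 3 fetuses per genotype nothing states litters or preparation batches. The p-values given here set differences of genotype means against the spread of these 9 libraries within their genotypes.

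Neural crest cells leave the dorsal edge of the neural tube, migrate through the head and trunk, and give rise to the glia of peripheral nerves and ganglia, to melanocytes, to sensory neurons and to much of the facial skeleton. Sox10 and Foxd3 are held to keep crest cells and their glial descendants in a progenitor state, Erbb3 receives the neuregulin signal on which Schwann cell precursors depend, and Mitf directs the melanocyte program that ends in pigment proteins such as Pmel. Gpr161 is a receptor of the primary cilium that acts through cyclic AMP and protein kinase A to restrain Sonic hedgehog signaling. Several of the 8 genes are also used outside the crest: Sox10 in oligodendrocyte precursors, Mitf in the pigmented epithelium of the eye, Ets1 in endothelium, Ngfr in some central neurons and Tfap2a in surface ectoderm and in the dorsal midbrain.

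The targeted gene was examined first. Gpr161 stood at 11.80, 11.74 and 11.78 on the log2 scale in the floxed controls, at 11.77, 11.91 and 11.96 in the Cre controls and at 11.74, 11.95 and 11.94 in the cKO. The cKO differed from the floxed controls by 0.11 (adjusted p = 0.223) and from the Cre controls by 0.00033 (adjusted p = 0.998) in limma. The table gives 1 value per gene, and the exons between the loxP sites could not be read separately, so Gpr161 does not check the labels of the cKO libraries. Wnt1, part of whose locus the transgene carries, stood between 9.08 and 9.25 in the floxed controls and between 10.57 and 11.01 in the 6 libraries with Cre, so that the libraries with and without Cre separated as labelled. Libraries of 1 genotype correlated at a Spearman coefficient of 0.995 to 0.999 across genes and libraries of different genotypes at 0.987 to 0.998, and their depth is unknown because the table holds no read counts.

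The label of crest glia and pigment cells was set against the defining markers of these cells. Of 10 markers of Schwann cell precursors and peripheral glia, 4 passed the filter, among them Fabp7, Pou3f1 and Pmp22, which are not restricted to peripheral glia. The more restricted glial markers were low in all 9 libraries: Cdh19 stood at 2.60 to 2.72 and the crest glial regulator Egr2 at 2.10 to 2.17, against a filter minimum that lay between 4.73 and 4.78 on this scale. Of 10 melanocyte markers only Slc24a5 passed, at 6.74 to 7.13, and the melanosome gene Mlana stood at 1.80 to 1.88, Dct at 3.77 to 4.09 and Tyr at 3.46 to 3.77. The spread between libraries shrinks toward 0 in rows this low, an effect of the transformation, so their narrow ranges are not a measure of precision. Cdh19, Egr2, Mlana, Dct and Tyr, named after their values were seen, were thus below the minimum in all 9 libraries, and the 8 genes are called crest genes below by the rule that chose them, without a claim that the measured RNA came from crest cells.

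Of the 7 crest genes tested, 2 passed an adjusted p under 0.05 in the cKO relative to the floxed controls: Tfap2a fell and Erbb3 rose. The other 5 did not pass, and the unadjusted p was under 0.05 in the same 2, where 48.1% of all genes had such a p. In the same comparison 38.3% of all genes tested passed, 19.5% upward and 18.8% downward, so that the share of the crest genes called, 2 of 7, was not above that of the table. Tfap2a was also a DEG, here a called gene that changed more than 1.5-fold, a class that held 2.92% of all genes. Relative to the Cre controls none of the 7 passed in limma, where 9.72% of all genes did, and 1 of the 7, Tfap2a, had an unadjusted p under 0.05, where 29.3% of all genes did. The Cre controls relative to the floxed controls gave no call among the 7 and none at an unadjusted p under 0.05, where 0.057% of all genes were called and 17.5% had such a p. No crest gene separated the 2 controls without overlap, where 22.8% of all genes did. The median log2 fold change over the 7 genes was -0.020 relative to the floxed controls and -0.0093 relative to the Cre controls, where the medians over all genes were 0.011 and 0.012. The 2 comparisons of the cKO share the cKO libraries. In bulk tissue such as this, fewer cells of a type and less RNA per cell cannot be told apart.

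**Figure D1:**
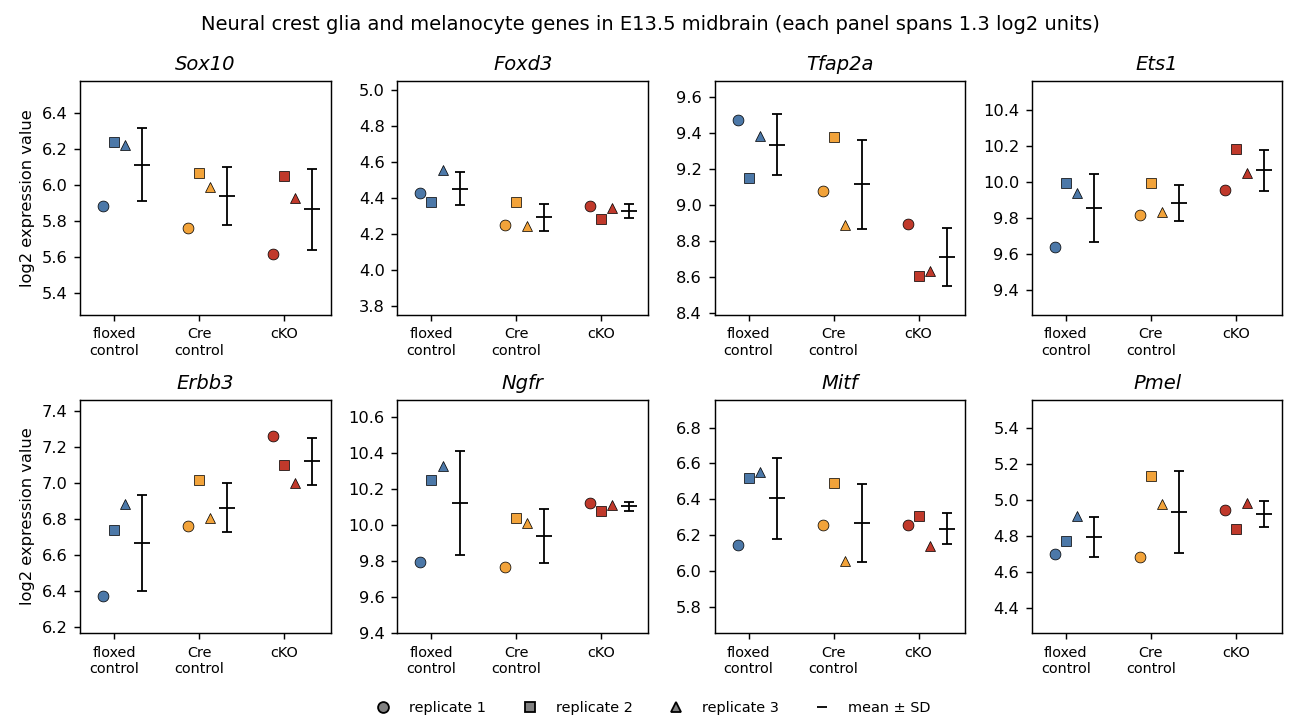
Log2 expression value (vertical axis) of each of the 8 genes in the 9 libraries, with the genotype on the horizontal axis, 1 symbol per library and the mean ± SD beside them; each panel spans the same number of log2 units. The 3 cKO libraries of Tfap2a lie below the 3 floxed controls, those of Erbb3 lie above them, and the cKO and floxed control libraries of Sox10, Ets1, Ngfr, Mitf and Pmel overlap. Of all genes tested, 57.1% separated the cKO from the floxed controls in either direction.

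Tfap2a encodes AP-2alpha, a transcription factor that marks premigratory crest and surface ectoderm and that is needed for closure of the head. It lies on the minus strand of chromosome 13 at chr13:40715302-40738376 (GRCm38). Its log2 value was 9.47, 9.15 and 9.38 in the floxed controls, 9.07, 9.38 and 8.89 in the Cre controls and 8.89, 8.60 and 8.63 in the cKO. All 3 cKO libraries lay below all 3 floxed controls, a separation that 57.1% of all genes tested also showed in one direction or the other, and the highest cKO library met the lowest Cre control. The mean was 9.33 ± 0.17 (SD, n = 3) in the floxed controls, 9.11 ± 0.25 in the Cre controls and 8.71 ± 0.16 in the cKO. Tfap2a was 1.54-fold lower in the cKO than in the floxed controls (log2 fold change -0.62, SE 0.13, 95% interval -0.91 to -0.34, adjusted p = 0.00484 in limma), and ranked 2012 by p among the 14029 genes. Against the Cre controls the difference was -0.40 (SE 0.13, 95% interval -0.69 to -0.12), with an adjusted p of 0.0757 that did not pass, and the Cre controls differed from the floxed controls by -0.22 (adjusted p = 0.393). The Cre controls libraries were the most spread of the 3 groups. Leaving out any 1 library kept the call relative to the floxed controls, and relative to the Cre controls no alternative reached it.

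RefSeq's promoter table for GRCm38.p6 lists starts for 4 of the 8 genes, and 7 starts in all. For Tfap2a it lists 2, and the 250 bases before each are shown because this gene was the only DEG among the crest genes. The first lies at chr13:40734921-40735170 and the second at chr13:40733796-40734045, both on the minus strand.
Tfap2a, the first start: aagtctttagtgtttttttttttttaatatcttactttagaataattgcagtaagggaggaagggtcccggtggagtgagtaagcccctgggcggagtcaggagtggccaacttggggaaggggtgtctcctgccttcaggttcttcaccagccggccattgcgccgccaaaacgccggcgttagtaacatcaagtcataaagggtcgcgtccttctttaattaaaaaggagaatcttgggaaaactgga
Tfap2a, the second start: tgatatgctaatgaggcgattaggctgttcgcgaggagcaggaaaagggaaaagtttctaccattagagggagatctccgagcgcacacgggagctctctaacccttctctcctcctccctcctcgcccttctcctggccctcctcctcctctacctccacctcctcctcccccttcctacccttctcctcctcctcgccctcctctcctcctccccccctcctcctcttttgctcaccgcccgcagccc
Both strands of all 7 stretches were searched for the letters ACAAAG and ACAATG (bound by Sox factors), CACGTG and CATGTG (E-boxes of the kind Mitf binds), GCCNNNGGC (AP-2), GACCACCCA (Gli) and TGACGTCA (the cyclic AMP response element, CRE). The last was added with the data in view, and no 2 matches overlapped. None of these letters was found in either Tfap2a stretch, which describes these windows only. Among 32851 promoter stretches of the same length, the shares that held each pattern were 16.5% for ACAAAG, 10.7% for ACAATG, 6.02% for CACGTG, 12.3% for CATGTG, 13.7% for GCCNNNGGC, 0.225% for GACCACCCA and 1.55% for TGACGTCA.

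The rest of the AP-2 family was measured in the same libraries. Tfap2b, which is used in crest and in dorsal midbrain neurons, stood at 12.86, 12.65 and 12.55 in the floxed controls, at 12.35, 12.49 and 12.53 in the Cre controls and at 11.92, 11.87 and 11.86 in the cKO. Tfap2d, a family member of the dorsal midbrain, stood at 9.48, 9.36 and 9.26, at 9.36, 9.18 and 9.47, and at 8.65, 8.75 and 8.58. In both genes all 3 cKO libraries lay below all 6 controls. In one direction or the other, 57.1% of all genes separated the cKO from the floxed controls and 31.5% from the Cre controls. The share that separated the cKO from all 6 controls was not counted. Tfap2b fell by 0.80 on the log2 scale relative to the floxed controls (adjusted p = 2.16e-04) and by 0.57 relative to the Cre controls (adjusted p = 0.00462). Tfap2d fell by 0.71 (adjusted p = 5.23e-04) and by 0.68 (adjusted p = 0.00304), and both genes kept both calls in every alternative run. Tfap2e fell by 0.29 relative to the Cre controls (adjusted p = 0.0461) and differed by -0.19 from the floxed controls (adjusted p = 0.0826), a difference that passed without floxed control replicate 3 (-0.26, adjusted p = 0.0384). The call of Tfap2e relative to the Cre controls needed every cKO library, Cre control replicates 2 and 3 and floxed control replicate 2, and was lost without any 1 of them (adjusted p between 0.0627 and 0.133). Tfap2c, a paralog of early ectoderm, differed by 0.11 and -0.23 and passed in neither comparison, with 1 Cre control library at 6.07 and the other 8 libraries between 5.29 and 5.59. Tfap2a, Tfap2b and Tfap2d were therefore lower in the cKO than in the floxed controls, while of the family only Tfap2b, Tfap2d and Tfap2e passed relative to the Cre controls. Whether the change of Tfap2a differed from those of its paralogs was not tested.

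**Figure D2:**
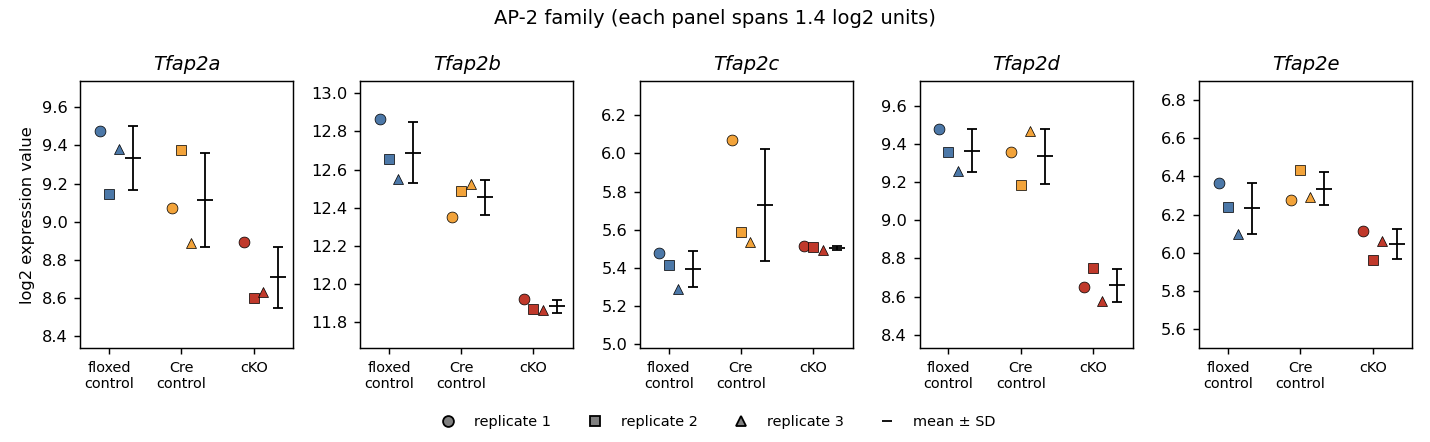
Log2 expression value (vertical axis) of the 5 AP-2 family genes by genotype (horizontal axis), with 1 symbol per library and the mean ± SD; each panel spans the same number of log2 units. The cKO libraries of Tfap2b and Tfap2d lie below all 6 controls, and those of Tfap2a below the floxed controls, with 1 cKO and 1 Cre control library level. Of all genes tested, 57.1% separated the cKO from the floxed controls and 31.5% from the Cre controls, in either direction.

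Other transcription factors that specify the crest moved in both directions. The list held 10: Snai1, Snai2, Sox8, Sox9, Pax3, Pax7, Msx1, Msx2, Tfap2b and Tfap2c. Relative to the floxed controls 3 rose, 3 fell and 4 did not pass, with a median log2 fold change of 0.065. The shares over all genes were 19.5% up and 18.8% down. Relative to the Cre controls 1 fell, Tfap2b, and 9 did not pass, where 9.72% of all genes passed. Msx2, a target of BMP signaling at the dorsal midline, rose by 0.52 (adjusted p = 0.0129), and Msx1, another such target, by 0.41 (adjusted p = 0.0460), with a difference of 0.48 from the Cre controls that did not pass (adjusted p = 0.0610). Pax7, which marks dorsal midbrain and crest, fell by 0.48 (adjusted p = 0.00595). Sox9, a partner of Sox10 in early crest and a gene of radial glia, differed by 0.021 (adjusted p = 0.829). Pax7 and Tfap2b passed relative to the floxed controls in every alternative. Msx2 was lost without floxed control replicate 3 or cKO replicate 1 (adjusted p = 0.0507 and 0.0515). Msx1 lost its call without any 1 of cKO replicates 1 and 2, Cre control replicates 2 and 3 and floxed control replicates 1 and 3 (adjusted p between 0.0526 and 0.150), and passed relative to the Cre controls on leaving out floxed control replicate 1 or 2 (adjusted p = 0.0320 and 0.0471).

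Sox10, the SOXE factor of crest, peripheral glia and melanocytes, lies on the minus strand at chr15:79154908-79165240. It stood at 5.88, 6.24 and 6.22 in the floxed controls, at 5.76, 6.07 and 5.99 in the Cre controls and at 5.62, 6.05 and 5.93 in the cKO. In each genotype replicate 1 was the lowest, and the 3 genotypes overlapped. The cKO differed from the floxed controls by -0.25 (95% interval -0.54 to 0.044, adjusted p = 0.160) and from the Cre controls by -0.074 (95% interval -0.37 to 0.22, adjusted p = 0.740). A fall of Sox10 by up to 0.54 on the log2 scale is thus within the interval. Among oligodendrocyte precursor genes, whose cells also use Sox10, the cKO differed from the floxed controls by 0.18 in Olig2 (adjusted p = 0.163) and by 0.10 in Cspg4 (adjusted p = 0.270). Olig2 and Cspg4 are named after their values were seen.

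Of the 6 oligodendrocyte precursor genes, Nkx2-2, which also marks ventral midbrain progenitors, rose by 0.72 relative to the floxed controls (adjusted p = 0.00104) and by 0.62 relative to the Cre controls (adjusted p = 0.0119). Olig1 fell by 0.34 relative to the floxed controls (adjusted p = 0.0380) and the other 4, Bcas1 among them (-0.025), did not pass. The call of Olig1 was lost on leaving out any of floxed control replicates 1 and 3 and cKO replicates 1 and 2 (adjusted p between 0.0919 and 0.135), and that of Nkx2-2 was kept in every alternative.

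Foxd3, a forkhead repressor of crest progenitors, is a gene of 1 exon on the plus strand at chr4:99656299-99658622. Its log2 value was 4.43, 4.37 and 4.55 in the floxed controls, 4.25, 4.38 and 4.24 in the Cre controls and 4.35, 4.28 and 4.34 in the cKO. All 9 libraries were below the minimum, so it was left out of the test. The highest cKO library (4.35) lay just below the lowest floxed control (4.37), and the Cre controls overlapped with both groups. In a fit without the filter the cKO differed from the floxed controls by -0.13 (adjusted p = 0.140) and from the Cre controls by 0.034 (adjusted p = 0.745). Its paralog Foxd1, a gene of meningeal and other mesenchyme, differed by 0.47 from the floxed controls (adjusted p = 0.0519), a difference that passed without floxed control replicate 2 (adjusted p = 0.00146). The 250 bases before its start, chr4:99656049-99656298, are shown because they hold matches to 2 of the patterns, in capitals.
Foxd3: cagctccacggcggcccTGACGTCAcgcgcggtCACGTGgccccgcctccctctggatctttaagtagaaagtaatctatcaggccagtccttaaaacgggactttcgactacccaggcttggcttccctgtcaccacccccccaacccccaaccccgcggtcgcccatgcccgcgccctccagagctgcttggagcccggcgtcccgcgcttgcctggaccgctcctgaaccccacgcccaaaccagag
The first, TGACGTCA, lies at -233 to -226 from the start and the second, CACGTG, at -217 to -212.

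Ets1, an ETS factor of cranial crest and of endothelium, lies on the plus strand at chr9:32636221-32757820. It stood at 9.64, 9.99 and 9.94 in the floxed controls, at 9.82, 9.99 and 9.83 in the Cre controls and at 9.95, 10.18 and 10.05 in the cKO. The 2 highest values were cKO libraries, but the groups overlapped. Ets1 in the cKO differed from the floxed controls by 0.21 (95% interval -0.0047 to 0.42, adjusted p = 0.111) and from the Cre controls by 0.18 (95% interval -0.030 to 0.39, adjusted p = 0.232), so that neither difference passed. Without floxed control replicate 1, the lowest library, the difference from the floxed controls was 0.099 (adjusted p = 0.375). Of 11 endothelial genes, 6 rose and 5 did not pass relative to the floxed controls, where 19.5% of all genes rose, with a median of 0.25, and none passed relative to the Cre controls (median 0.14). Egfl7, a secreted endothelial factor, rose by 0.42 (adjusted p = 0.00284) and Flt1, a VEGF receptor, by 0.37 (adjusted p = 0.00493), and both passed in every alternative. Emcn rose by 0.46 (adjusted p = 0.0171) and lost its call on leaving out any of floxed control replicates 1 and 3 and cKO replicate 2 (adjusted p between 0.0622 and 0.0693). The VEGF receptor Kdr and the junction gene Cdh5 differed by 0.24 (adjusted p = 0.176) and 0.28 (adjusted p = 0.147), Kdr passing on leaving out Cre control replicate 1 (adjusted p = 0.0396) and Cdh5 on leaving out floxed control replicate 2 (adjusted p = 0.0374). The summed level of the list was 7353 to 9371 in the floxed controls, 8107 to 10051 in the Cre controls and 9701 to 10395 in the cKO, and its part in the values of Ets1 was not tested. The ETS relatives Ets2 and Fli1 passed in neither comparison.

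Erbb3, the receptor through which neuregulin reaches Schwann cell precursors, lies on the minus strand at chr10:128567523-128589652. Its log2 value was 6.37, 6.74 and 6.88 in the floxed controls, 6.76, 7.02 and 6.81 in the Cre controls and 7.26, 7.10 and 7.00 in the cKO. The 3 cKO libraries lay above the 3 floxed controls, a separation that 57.1% of all genes showed in either direction, and overlapped with the Cre controls. The mean rose from 6.66 ± 0.27 (SD, n = 3) in the floxed controls to 7.12 ± 0.13 in the cKO, with 6.86 ± 0.14 in the Cre controls. Erbb3 was 1.37-fold higher in the cKO than in the floxed controls (log2 fold change 0.46, SE 0.13, 95% interval 0.17 to 0.74, adjusted p = 0.0182 in limma). Against the Cre controls the difference was 0.26 (95% interval -0.024 to 0.54, adjusted p = 0.205), which did not pass, and the Cre controls differed from the floxed controls by 0.20 (adjusted p = 0.435). Without cKO replicate 1, the highest library, the difference from the floxed controls was 0.39 and no longer passed (adjusted p = 0.0732). Without floxed control replicate 1, the lowest library, it was 0.31 (adjusted p = 0.0499).

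Ngfr, the low-affinity neurotrophin receptor p75, lies on the minus strand at chr11:95568818-95587735. It stood at 9.79, 10.25 and 10.33 in the floxed controls, at 9.77, 10.04 and 10.01 in the Cre controls and at 10.12, 10.08 and 10.11 in the cKO. The cKO libraries lay close together, inside the range of the floxed controls and above all 3 Cre controls, a separation that 31.5% of all genes showed between cKO and Cre control. The cKO differed from the floxed controls by -0.020 (95% interval -0.30 to 0.26, adjusted p = 0.913) and from the Cre controls by 0.16 (95% interval -0.11 to 0.44, adjusted p = 0.403).

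The ligands and partner receptors of these signals were examined next. There were 12 tested, among them the neuregulins and the endothelin and Kit signals. Relative to the floxed controls 3 rose, 6 fell and 3 did not pass, with a median log2 fold change of -0.19. In that comparison 19.5% of all genes rose and 18.8% fell. None passed relative to the Cre controls, where the median was -0.16 and 9.72% of all genes passed. Nrg3, a neuregulin of the developing brain, stood at 8.35, 8.29 and 8.51 in the floxed controls. In the cKO it stood at 7.75, 7.82 and 7.91, with no overlap, a separation that 57.1% of all genes showed in either direction. It fell by 0.56 (adjusted p = 0.00218) and differed from the Cre controls by -0.34 (adjusted p = 0.0546), a difference that passed without Cre control replicate 1, its lowest control library (adjusted p = 0.00575), and also after median centring (adjusted p = 0.0407) and quantile normalization (adjusted p = 0.0489). Nrg2 fell by 0.48 relative to the floxed controls (adjusted p = 0.00553), and Kit, the receptor that melanoblasts depend on, fell by 0.40 (adjusted p = 0.00730). Edn3, the endothelin that acts on crest and melanoblasts, rose by 0.43 (adjusted p = 0.00532), and its receptor Ednrb differed by -0.13 (adjusted p = 0.132), as did the p75 partner Sort1 by -0.15 (adjusted p = 0.125). The 2 genes of this group that encode partners of Erbb3 in the receptor pair, Erbb2 and Erbb4, went apart, at 0.23 (adjusted p = 0.0157) and -0.23 (adjusted p = 0.0316), and are named after their values were seen. Nrg3 and Edn3 passed relative to the floxed controls in every alternative. Nrg2 and Kit kept their calls when any 1 library was left out. With floxed control replicate 1 as the sole floxed control neither passed (adjusted p = 0.0707 and 0.0527), at differences of -0.48 and -0.49 that were not smaller than those of the full set. Erbb2 and Erbb4 were each lost without floxed control replicate 1 or 3 and without cKO replicate 1, and also without cKO replicate 2 for Erbb2 and cKO replicate 3 for Erbb4.

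Mitf, the master regulator of melanocytes and of the pigmented epithelium of the eye, lies on the plus strand at chr6:97807052-98021349. It stood at 6.15, 6.52 and 6.55 in the floxed controls, at 6.26, 6.49 and 6.06 in the Cre controls and at 6.26, 6.31 and 6.14 in the cKO. The genotypes overlapped, and the 3 cKO libraries were the most alike. The cKO differed from the floxed controls by -0.17 (95% interval -0.45 to 0.11, adjusted p = 0.311) and from the Cre controls by -0.034 (95% interval -0.31 to 0.25, adjusted p = 0.881). The table has 1 value for all forms of Mitf. The third of its 3 listed starts is that of the melanocyte form, and the 250 bases before it (chr6:97991533-97991782, plus strand) are shown because this is the promoter through which cyclic AMP is known to act in pigment cells. The capitals mark TGACGTCA, at -153 to -146 from the start.
Mitf, the third start: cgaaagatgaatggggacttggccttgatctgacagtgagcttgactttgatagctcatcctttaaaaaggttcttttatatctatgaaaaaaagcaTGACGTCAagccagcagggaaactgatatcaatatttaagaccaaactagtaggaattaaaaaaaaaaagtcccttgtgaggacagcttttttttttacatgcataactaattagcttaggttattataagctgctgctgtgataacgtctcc
The bases before the first and the second start of Mitf and before the start of Ngfr held none of the patterns. Of the MiT relatives, Tfeb, a regulator of lysosome genes, rose by 0.36 relative to the floxed controls (adjusted p = 0.00200, in every alternative) and differed by 0.073 from the Cre controls, which did not pass, and Tfe3 and Tfec did not pass in either comparison.

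Pmel, which encodes the fibril protein of the melanosome, lies on the plus strand at chr10:128704195-128720238, 115 kb from Erbb3. It stood at 4.70, 4.77 and 4.92 in the floxed controls, at 4.69, 5.13 and 4.98 in the Cre controls and at 4.95, 4.84 and 4.98 in the cKO, and 7 of the 9 libraries were at or over the minimum, 2, 2 and 3 by genotype. The groups overlapped. Pmel in the cKO differed from the floxed controls by 0.13 (95% interval -0.10 to 0.36, adjusted p = 0.355) and from the Cre controls by -0.0093 (95% interval -0.24 to 0.22, adjusted p = 0.962). Pmel shares 837 bp with the opposite-strand gene Cdk2, a cell cycle kinase, and 105 bp with Dgka, and nothing states that the reads were counted by strand. Cdk2 rose by 0.42 relative to the floxed controls (adjusted p = 3.73e-04) and by 0.18 relative to the Cre controls (adjusted p = 0.0396), and its part in the low values of Pmel was not tested. Slc24a5, the only gene of the melanocyte list that was tested, differed by -0.15 (adjusted p = 0.219) and -0.045 (adjusted p = 0.768). Without floxed control replicate 1 its difference from the floxed controls was -0.24 and passed (adjusted p = 0.0455). The summed list ranged from 212 to 244 in the floxed controls, from 218 to 233 in the Cre controls and from 213 to 233 in the cKO. Trpm1, the second highest of the list, stood at 4.25 to 4.45 and was not tested. Annotated antisense genes also overlap Tfap2a (Gm47061, Gm26688 and Gm47067) and Ets1 (Gm27240), none of them in the table.

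**Figure D3:**
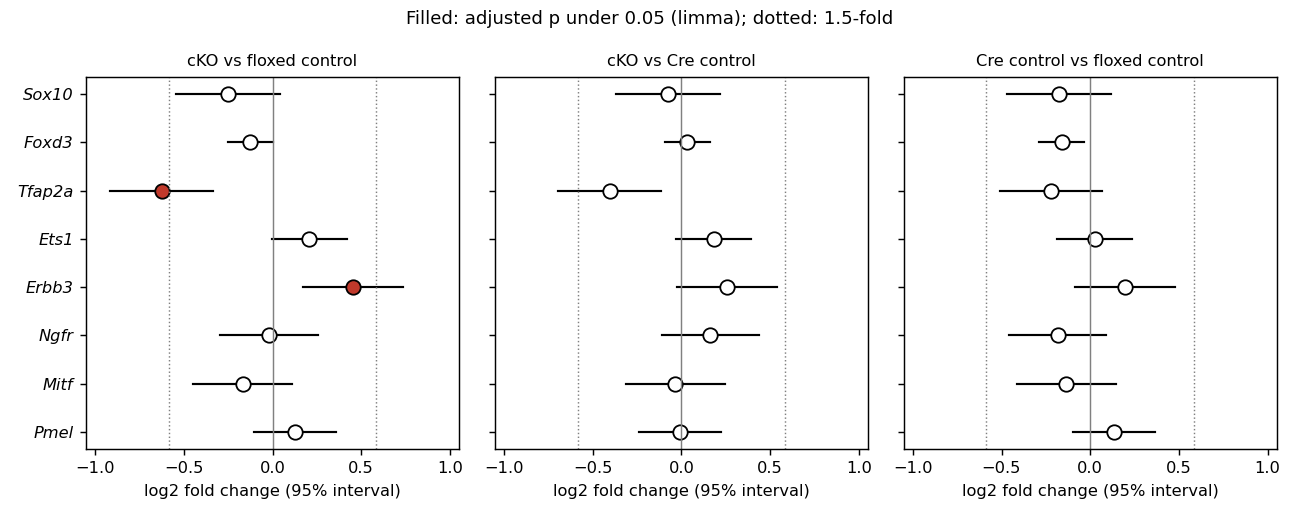
Log2 fold change (horizontal axis, points) of each of the 8 genes with its 95% interval (lines) in the 3 comparisons, from the limma fit; filled points passed an adjusted p under 0.05 and the dotted lines mark 1.5-fold. Foxd3 comes from the fit without the filter. Tfap2a and Erbb3 are filled in the cKO relative to the floxed controls at -0.62 and 0.46, and no point is filled in the other comparisons.

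The linear level was divided by the combined length of all annotated exons of each gene. Nothing states whether the deposited values already carry a correction for length, so the order of the genes is only approximate. In the floxed controls the level per kb was 328 for Ngfr, 132 for Tfap2a, 110 for Ets1 and 22.8 for Sox10. It was 17.0 for Erbb3, 13.8 for Mitf, 12.1 for Pmel and 9.42 for Foxd3. The order in the cKO placed Ets1 (126) above Tfap2a (85.7) and Erbb3 (23.2) above Sox10 (19.2).

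After the genotype means were removed, all pairs among Sox10, Erbb3, Ngfr, Mitf, Pmel and Ets1 were positively correlated, with Pearson's r from 0.39 to 0.89 over the 9 libraries. It was 0.89 between Sox10 and Ets1, 0.86 between Erbb3 and Ngfr, 0.84 between Erbb3 and Mitf and 0.81 between Mitf and Ets1. The r of Tfap2a with the other tested genes lay between -0.40 and 0.33. Floxed control replicate 1 was the lowest of its genotype in 6 of the 8 genes and Cre control replicate 1 in 5 of 8. These are descriptions over 9 libraries, each centred on the mean of its own genotype, with no test. The centring leaves fewer than 9 free values per gene. Tfap2a was set apart from the other tested genes after the r values were seen. The shares of all gene pairs with such an r, and of all genes lowest in these libraries, were not counted. Nothing particular to the crest genes is read from them.

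**Figure D4:**
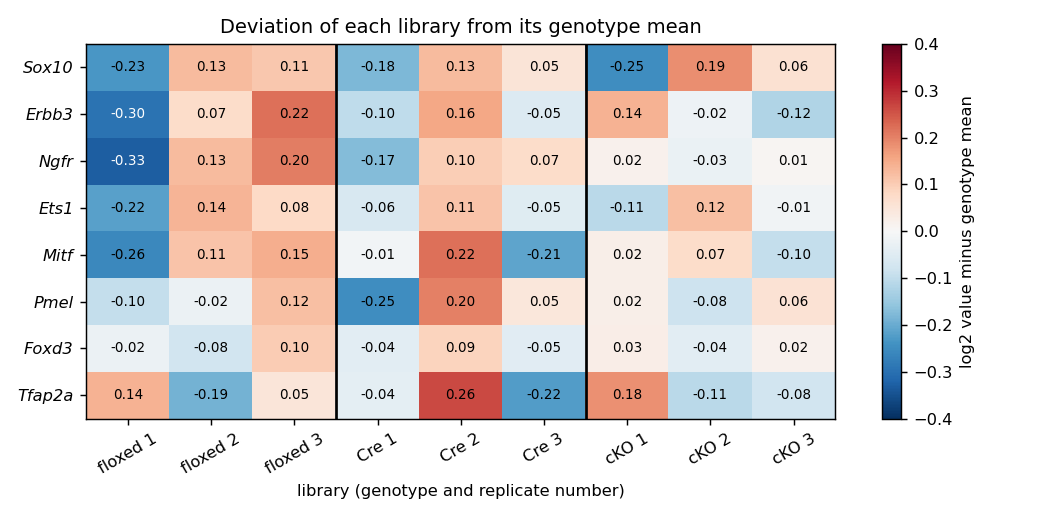
Log2 value of each library minus its genotype mean (colour and printed value) for the 8 genes (rows) in the 9 libraries (columns, genotype and replicate number). Floxed control replicate 1 is below its mean for every gene but Tfap2a, by 0.33 for Ngfr.

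The genes with the most similar pattern over the 9 libraries, by Pearson's r among the genes tested, were Tmem108 (0.957), Chst8 (0.954) and Bmyc (0.951) for Sox10, Mybpc1 (0.970), Arrb2 (0.967) and Zfp280d (0.956) for Tfap2a, and Trim25 (0.957), Arhgap24 (0.953) and Mmrn1 (0.949) for Ets1. For Erbb3 they were Rab38 (0.980), Rasgrp3 (0.968) and Fgfrl1 (0.968), and for Ngfr Slc29a3 (0.965), Pla2g15 (0.934) and Shisa4 (0.906). For Mitf they were Zic2 (0.944), Dcdc2a (0.934) and Mr1 (0.921), and for Pmel Pex11g (0.908), Sec24c (0.899) and Zdhhc5 (0.898). They were picked as the highest among all other genes tested, over 9 points, and no p is given.

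The peripheral glial list gave 1 riser and no faller among its 4 tested genes relative to the floxed controls, where 19.5% of all genes rose. It gave no call relative to the Cre controls. Pmp22, a myelin protein gene also made in mesenchyme, rose by 0.28 (adjusted p = 0.0207) and lost its call on leaving out any of floxed control replicates 1 and 3 and cKO replicates 1 and 2 (adjusted p between 0.0632 and 0.0822). Fabp7, which is made by radial glia, and Pou3f1 differed by -0.16 (adjusted p = 0.212) and 0.093 (adjusted p = 0.280). The summed level of the list was 26370 to 30210 in the floxed controls, 25195 to 31870 in the Cre controls and 24971 to 26564 in the cKO, and the 3 ranges overlapped. Fabp7, at a mean log2 value of 14.67 in the floxed controls, made up most of this sum, which therefore says little about peripheral glia.

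Markers of other tissues of the head also differed between the genotypes. Of 8 surface ectoderm genes, whose cells also use Tfap2a, 7 rose and 1 did not pass relative to the floxed controls, with a median of 0.89. In that comparison 19.5% of all genes rose. Relative to the Cre controls 3 rose, with a median of 0.56, where 9.72% of all genes passed in either direction. The epidermal keratin Krt5 stood at 7.30 to 7.39 in the floxed controls, at 8.12, 10.48 and 9.70 in the Cre controls and at 10.35 to 10.54 in the cKO, a rise of 3.13 (adjusted p = 9.61e-04) relative to the floxed controls. Krt14 rose by 2.33 (adjusted p = 0.00147), the epidermal regulator Trp63 by 1.11 (adjusted p = 7.25e-04), Epcam by 0.99 (adjusted p = 1.90e-04) and Cdh1 by 0.79 (adjusted p = 0.00113). The summed level of the list was 870 to 1023 in the floxed controls, 1087 to 2899 in the Cre controls and 2958 to 3273 in the cKO. Tfap2a fell where this list rose. Both were highest in replicate 2 within the Cre controls and in replicate 1 within the cKO. Within the floxed controls Tfap2a was highest in replicate 1 (9.47), where the list was lowest (870). Krt5, Krt14, Trp63, Epcam and Cdh1 passed relative to the floxed controls in every alternative. Relative to the Cre controls Epcam did so too (0.57, adjusted p = 0.00896), while Cdh1 did not keep its call in every alternative and Trp63 lost its call without Cre control replicate 3, any 1 cKO library or any 1 floxed control (adjusted p between 0.0581 and 0.146).

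Neurons of the cranial sensory ganglia, which come in part from the crest, gave the opposite direction. Of 7 genes tested, none rose, 3 fell and 4 did not pass relative to the floxed controls, with a median of -0.36. In that comparison 18.8% of all genes fell. None passed relative to the Cre controls (median -0.021), where 9.72% of all genes did. Relative to the floxed controls, the intermediate filament gene Prph fell by 0.83 (adjusted p = 0.00448) and Avil by 0.36 (adjusted p = 0.00179), while Isl1 differed by -0.47 (adjusted p = 0.0994). The list summed to 1216, 1587 and 1752 in the floxed controls, 1218 to 1282 in the Cre controls and 1040 to 1193 in the cKO. The hindbrain genes Hoxa2 and Hoxb2 were also lower in the cKO than in the floxed controls, by 0.85 (adjusted p = 0.00273) and 0.89 (adjusted p = 0.0132), and differed from the Cre controls by 0.020 (adjusted p = 0.947) and 0.071 (adjusted p = 0.861). Floxed control replicate 1 had the lowest sum of the ganglion list among the floxed controls, and with it as the sole floxed control, a choice made because these genes were lower in it, the differences were -0.38 for Prph, -0.28 for Avil, -0.71 for Hoxa2 and -0.37 for Hoxb2. None of these 4 passed in that fit, in which the lone library is assumed to vary like the other groups, and nothing is read from the lost calls.

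**Figure D5:**
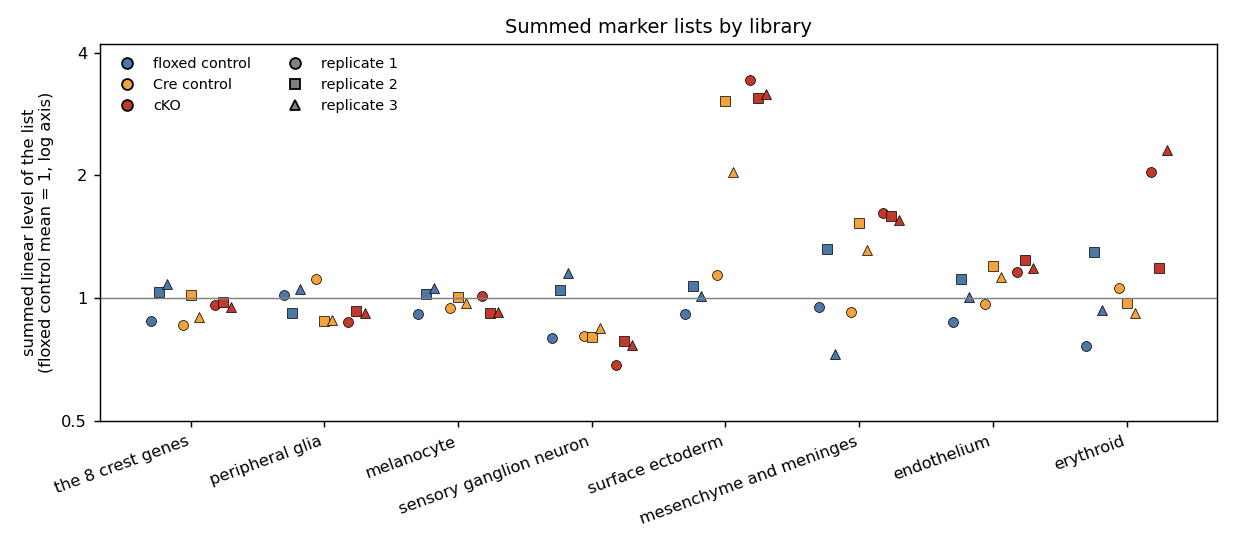
Summed linear level of each marker list (horizontal axis) in each of the 9 libraries, divided by the mean of the floxed controls (vertical axis, log scale); colour gives the genotype and the symbol the replicate number. The crest gene, peripheral glia (mostly Fabp7) and melanocyte lists of the 3 genotypes overlap. The surface ectoderm, mesenchyme and meninges, and endothelium lists are higher in every cKO library than in every floxed control. The sensory ganglion list is lower, and the erythroid list overlaps. Of single genes tested, 57.1% separated the cKO from the floxed controls in either direction.

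The remaining lists covered mesenchyme, blood, macrophages and regions of the brain. Over all genes, 19.5% rose and 18.8% fell relative to the floxed controls, and 9.72% passed in either direction relative to the Cre controls. Of 10 genes of head mesenchyme and meninges, 8 rose and 2 did not pass relative to the floxed controls (median 0.69), and none passed relative to the Cre controls (median 0.24). The collagen gene Col3a1 rose by 0.77 (adjusted p = 0.00832) and Lum by 0.72 (adjusted p = 0.00438) and passed in every alternative, and the list summed to 30476 to 55279, 38771 to 63995 and 65125 to 67766 by genotype. Col1a2 rose by 0.69 (adjusted p = 0.0461) and Twist1, which cranial crest mesenchyme uses, by 0.79 (adjusted p = 0.0269). Col1a2 was lost without any 1 of the cKO libraries, of floxed control replicates 1 and 3 and of Cre control replicate 3, and Twist1 without any 1 cKO library (adjusted p between 0.0512 and 0.166 over both genes). Of 8 red blood cell genes, 5 rose relative to the floxed controls and 3 relative to the Cre controls. The embryonic globin gene Hbb-y rose by 0.96 (adjusted p = 0.0114), and its call was lost without cKO replicate 1 (adjusted p = 0.0502). Hba-a2 rose by 0.87 (adjusted p = 0.0193), a call lost without any 1 of floxed control replicates 1 and 3 and cKO replicates 1 and 3 (adjusted p between 0.0626 and 0.0753). Of 7 macrophage genes 1, Fcer1g, rose relative to the floxed controls (0.22, adjusted p = 0.0412), a call that needed every cKO library, Cre control replicate 2 and floxed control replicates 1 and 3 and was lost without any 1 of them (adjusted p between 0.0520 and 0.141), and Csf1r and C1qb did not pass.

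Of 8 midbrain genes, 2 rose and 2 fell relative to the floxed controls, where 19.5% of all genes rose and 18.8% fell. The progenitor genes Nes and Sox2 rose by 0.50 (adjusted p = 7.83e-04) and 0.29 (adjusted p = 0.00219), the neuronal tubulin Tubb3 fell by 0.41 (adjusted p = 0.00359) and Meis2 fell by 0.57 (adjusted p = 9.14e-04). Sox2 and Tubb3 did not pass with floxed control replicate 1 as the sole floxed control (0.28 and -0.43, adjusted p = 0.0518 and 0.0589). Of 6 forebrain and hindbrain genes tested, 4 fell relative to the floxed controls, with Lhx2, which is also used in the dorsal midbrain, at -0.60 (adjusted p = 7.27e-04) and with Six3 at -0.038 (adjusted p = 0.784). Lhx2 also fell relative to the Cre controls, by 0.67 (adjusted p = 0.00240). The part of the differences in these lists in the values of Tfap2a and Erbb3 was not tested.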

How the data were processed

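Midbrain tissue of 9 E13.5 fetuses was dissected, and poly-A RNA was sequenced. What the authors deposited is a single table of log2 values, normalized across libraries and shrunk for low genes. The transformation is not named in the sources used here and was read from the values. The submitters' processing notes name FastQC 0.10.1, kallisto 0.46.1, DESeq2 and mm10. Depth is unknown, and shrinkage can narrow differences of low genes such as Foxd3 and Pmel. Genes needed a symbol and 1 cpm or more, on the linear scale, in 3 or more libraries, and 118 repeat rows were dropped.

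Genotype means were estimated from the 9 libraries together with limma 3.58.1 under R 4.3.3 (eBayes with a trend, two-sided), with Benjamini-Hochberg adjustment over 14029 genes, and tested on simulated data. A call was an adjusted p under 0.05, and a DEG also exceeded 1.5-fold. Positions come from GENCODE M21 (GRCm38) and promoters from RefSeq (GRCm38.p6). The crest genes and all lists were chosen with earlier results of these data known. From each list were named the 2 genes of highest mean and up to 4 called genes of largest change. Alternatives changed the filter, the scaling, the prior trend and the libraries, and added a replicate block. Some genes of the lists are counted in them but not reported here by name.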

Additional observations from a re-analysis of the deposited data

How the results depend on the processing

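The number of crest genes called in the cKO against the floxed control was 2. It was 1 with at least 5 cpm, where 3 of the 8 were tested, and 1 to 2 when any 1 library was left out. It was 4 with a replicate block, where Sox10 (adjusted p = 0.00695) and Ets1 (adjusted p = 0.0199) joined. With floxed control replicate 1 as the sole floxed control, an alternative chosen after seeing the data because sensory ganglion and Hox genes were lower there, it was 3, with Ets1 at 0.42 (adjusted p = 0.0366); the lone library is assumed to vary like the other groups. The cause of these differences was not tested beyond the fewer genes or libraries that each leaves. The counts against the Cre control and between the controls were 0 in every alternative run. Nothing states whether a replicate number stands for a shared litter or day, and this was not tested. Residuals of same-numbered libraries correlated at -0.027 to 0.26 (median 0.10, 9 pairs) and others at -0.28 to 0.16 (median -0.053, 18 pairs). Not every library correlated best with its own number, and the block was not used for the reported values.

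Tfap2a kept its direction throughout, between -0.76 and -0.56 against the floxed control (adjusted p between 0.00211 and 0.0336) and between -0.52 and -0.27 against the Cre control (adjusted p between 0.0627 and 0.187). Differences that had not passed changed sign. On leaving out 1 library at a time, Ngfr ranged from -0.19 to 0.082, Sox9 from -0.045 to 0.087 and Bcas1 from -0.11 to 0.040 between cKO and floxed control; Sox10 ranged from -0.17 to 0.050, Mitf from -0.14 to 0.076 and Pmel from -0.13 to 0.091 between cKO and Cre control; and Ets1 ranged from -0.083 to 0.094 between the controls. With floxed control replicate 1 alone, the cKO differed from it by 0.31 in Ngfr, 0.089 in Mitf, -0.064 in Sox9, 0.043 in Slc24a5 and 0.028 in Bcas1, and the Cre control by 0.058 in Sox10, 0.15 in Ngfr and 0.12 in Mitf. Leaving out 1 library also gave calls between cKO and floxed control that the full set did not: without Cre control replicate 1 Fabp7 (adjusted p = 0.0317), Sort1 (0.00348), Olig2 (0.0301) and Csf1r (0.0354), without floxed control replicate 2 Csf1r (0.0455) and C1qb (0.0479), without floxed control replicate 1 Isl1 (0.0490) and Slc24a5 (0.0455), and without floxed control replicate 3 Tfap2e (0.0384). Foxd1, Kdr and Cdh5 are given above with their values on leaving out 1 library. Other alternatives also gave such calls. In a fit of only the 6 libraries compared, Fabp7 (adjusted p = 0.046), Sort1 (0.00627), Olig2 (0.0401), Kdr (0.0472) and Ednrb (0.04996) passed. The replicate block gave Foxd1 (0.0327), Cdh5 (0.0204), Csf1r (0.0150) and Isl1 (0.00345). The filter of at least 5 cpm gave Foxd1 (0.0488), and quantile normalization Fabp7 (0.0473). With the replicate block Nrg3 also passed between cKO and Cre control (adjusted p = 0.0262), as did Msx1 (0.0353). With 3 libraries per genotype and unknown depth, changes of the low genes smaller than their intervals could not be detected.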
